A study of Mus musculus with 6 samples.

Results

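The genes described here encode core splicing factors: the heterogeneous nuclear ribonucleoproteins (symbols starting with Hnrnp), the SR proteins (Srsf and a digit), the small nuclear ribonucleoprotein subunits whose symbols start with Snrp, the SF3A and SF3B subunits (Sf3a, Sf3b), and the peptidyl-prolyl isomerase Ppil1. They were chosen by a rule on symbols, which gave 53 of the 21878 rows of the expression table. The rule was set with earlier results of these data known. The families held 20 hnRNP, 11 SR, 12 Snrp and 9 SF3 genes, and Ppil1. Of the 53 genes, 51 had a mean of at least 1 FPKM over all libraries and were tested. FPKM is a level per transcript length and per library total, so levels can be set beside each other between genes.

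The cells were Neuro-2a, a mouse neuroblastoma line. RNA was sequenced from 3 groups of 2 libraries each: control cells that the labels call wild type, cells overexpressing lncPim1 (a long noncoding RNA), and cells treated by RNA interference against lncPim1, called knockdown below. Neither an empty vector nor a scrambled RNA is named for the control cells. Whether the libraries within a group are separate cultures is not stated, so p-values reflect only their spread, which may be technical. The transcript lncPim1 was not analysed here, so its own level does not check the labels.

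Splicing is carried out by the spliceosome, which is built on each intron from small nuclear RNAs and their proteins. A ring of Sm proteins sits on most of these RNAs, the U1 particle recognises the donor splice site, and the U2 particle, held by SF3A and SF3B, pairs with the branch site. SR proteins generally bind exons and recruit this machinery, whereas hnRNP proteins coat the pre-mRNA and often silence sites. In neurons and neuroblastoma cells these proteins, together with tissue-restricted regulators, set which exons are kept. Many SR and hnRNP genes limit their own mRNA through exons that lead it to nonsense-mediated decay.

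Upstream sequence is shown for Hnrnpa0, Srsf3 and Sf3b6, which had the largest fall under knockdown among the hnRNP, SR and SF3 genes. The sequences come from RefSeq on build GRCm38.p6, are written in the direction of the gene, and were shortened where exons of a protein-coding gene covered the window of 250 bases before the annotated start. Capitals mark a CCAAT box (CCAAT or its reverse complement ATTGG) or an ETS-type motif (CCGGAAG or its reverse complement CTTCCGG). Only genes whose sequence held 1 of these motifs were considered for display, so their presence in these 3 was set by the choice. Hnrnpm, also among the largest falls, held neither motif and is not shown.
Hnrnpa0, chr13:58128557-58128806, minus strand: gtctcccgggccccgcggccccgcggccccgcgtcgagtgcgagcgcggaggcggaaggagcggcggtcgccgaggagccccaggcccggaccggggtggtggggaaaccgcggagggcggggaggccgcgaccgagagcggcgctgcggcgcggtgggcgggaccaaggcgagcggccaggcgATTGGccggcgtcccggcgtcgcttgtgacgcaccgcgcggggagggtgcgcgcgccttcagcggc
Srsf3, chr17:29032410-29032627, plus strand: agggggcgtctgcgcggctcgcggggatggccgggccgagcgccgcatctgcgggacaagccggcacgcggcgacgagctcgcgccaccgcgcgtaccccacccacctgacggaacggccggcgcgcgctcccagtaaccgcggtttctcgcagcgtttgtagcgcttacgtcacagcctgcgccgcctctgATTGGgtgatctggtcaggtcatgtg
Sf3b6, chr12:4817358-4817543, plus strand: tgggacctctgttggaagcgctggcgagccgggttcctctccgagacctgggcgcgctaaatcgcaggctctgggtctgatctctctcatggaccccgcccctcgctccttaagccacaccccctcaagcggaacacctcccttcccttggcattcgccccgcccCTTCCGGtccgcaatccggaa
The CCAAT box lay 66 bases before the RefSeq start of Hnrnpa0 and 58 bases before that of Srsf3. In Sf3b6 the ETS-type motif lay 85 bases before the RefSeq start. For Srsf3 and Sf3b6 the GENCODE gene starts directly after the last printed base, so the motifs lie closer to that start. Over both strands of the full 250 bases, CCAAT was found for 21 of the 45 tested members with a RefSeq promoter (46.7%) and for 36.9% of the 8348 tested genes with one. CCGGAAG was found for 16 members (35.6%), among them Snrpb2, Snrpg, Snrpc, Sf3a1, Sf3a2, Sf3a3 and Ppil1, and for 15.3% of the tested genes. Of these 16 members, 13 were called lower under knockdown, beside 34 of all 45. Srsf11, Srsf4 and Hnrnpd also held it and were not called lower. The GC box GGGCGG was found for 32 members (71.1%) and 62.3% of genes, the TATA motif TATAAA for 5 members (11.1%) and 5.50% of genes, the E-box CACGTG for 3 members (6.67%) and 8.76% of genes, and TGACGTCA for 2 members (4.44%) and 3.02% of genes. None of these 6 motifs contains another. These are matches of letters, and binding was not measured.

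In control cells the members spanned a wide range of levels. Hnrnpa1, which encodes a widely studied splicing repressor, was the highest at 432 and 449 FPKM, followed by Hnrnpab at 307 and 308, Snrpg at 216 and 207 and Snrpd3 at 195 and 203. The Snrpg and Snrpd3 pairs did not overlap, and both lay above the next genes, Snrpd2 (182 and 179), Hnrnpk (179.5 and 183) and Hnrnpa0 (182 and 178), whose values overlapped among themselves. Hnrnph3, which encodes a short relative of hnRNP H, was the lowest tested member at 8.97 and 8.50 FPKM. The lowest tested gene of the SR family was Srsf4 (18.5 and 18.1 FPKM), and those of Snrp and SF3 were Snrpb2 (41.3 and 41.9 FPKM) and Sf3a1 (20.4 and 20.1 FPKM).

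The 2 members that were not tested were close to undetected. Snrpn, the imprinted gene for the neuronal Sm protein SmN, was listed at 0.443 and 0.560 FPKM in control, 0.536 and 5e-06 under overexpression, and 0.319 and 4e-06 under knockdown. Its widely expressed paralog Snrpb, which encodes SmB, was at 70.2 and 58.99 FPKM in the same control libraries. Srsf12, an SR-related gene, was at 0.161 and 0.134 FPKM in control, 0.257 and 0.0982 under overexpression, and 0.0852 and 0.163 under knockdown.

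The labelled cell type was checked with markers, and each library with its totals. Of 18 sympathetic and neuroblastoma markers, 15 had a mean of at least 1 FPKM, with Hand2 at 108 and 106 FPKM and Tubb3 at 397 and 388 in control, while Dbh was at 0.246 and 0.155. Their summed level was 2054 and 2022 FPKM in control, 1811 and 1995 under overexpression and 1726 and 1701 under knockdown. Of 8 fibroblast, 8 glial, 7 endothelial and 11 leukocyte markers in the table, 1, 1, 2 and 2 reached a mean of 1 FPKM. Digestive tract markers summed to 65.1 and 60.2 FPKM in control, 57.5 and 71.0 under overexpression, and 28.9 and 30.2 under knockdown. There 10 of 18, among them Reg1 and Prap1, were at 0 in both libraries. Others remained, such as Cela1 (23.2 and 25.9 FPKM in control, 20.3 and 20.6 under knockdown) and Vil1 (5.03 and 5.46, against 4.08 and 4.51). Lgals4 was higher under knockdown (2.71 and 2.10 in control, 3.93 and 4.49 under knockdown). The part of these 2 marker lists in the changes of the splicing factors was not tested. Summed FPKM was 272528 to 277509 under knockdown and 294510 to 305463 in the other libraries.

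Knockdown of lncPim1 was set against control to ask which genes differ between these groups. With no scrambled RNA named, loss of lncPim1 and the interference treatment itself cannot be told apart. Most splicing factor genes were lower: 39 of the 51 tested members fell (76.5%), 2 rose (3.92%) and 10 did not pass the test. A gene was called when its limma p, adjusted by the Benjamini-Hochberg method over all 10721 tested genes, was under 0.05. Of all tested genes 46.2% were called, 31.3% lower and 14.8% higher. The median change of the members was −0.27 on the log2(FPKM + 1) scale, against −0.070 for all tested genes. All 51 tested members also had a mean of at least 5 FPKM. Among the 7499 genes at that level, 39.5% were called lower and 12.6% higher, with a median of −0.11. The members again gave 39 lower and 2 higher there. Both knockdown libraries lay below both control libraries for 41 members and above them for 4, where 47.9% and 26.5% of all genes did so. In bulk RNA, less RNA per cell and fewer cells of a kind cannot be told apart.

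How far these calls depend on the scaling between libraries was examined with 3 other scalings. After scaling each library by its median log ratio, 29 members were called lower and 4 higher (all genes 21.3% and 20.9%). With quantile normalization the members gave 16 and 7 (21.4% and 18.7%), and with the same summed FPKM in each library 22 and 6 (16.3% and 25.4%). Their median stayed below 0 under each (−0.18, −0.10 and −0.13), and 16 members were called lower and 2 higher, Hnrnph3 and Srsf11, both here and under all 3. The medians of the 4 families also stayed below 0 under all 3. The fewest lower calls came with quantile normalization, at 7 hnRNP, 3 SR, 2 Snrp and 3 SF3 genes, beside 2, 2, 1 and 2 higher. Of the 10 members not called here, Hnrnpa3 and Sf3b1 were called higher under all 3 scalings, Sf3b5 and Snrpa1 under 2 of them and Srsf10 under 1.

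**Figure D1:**
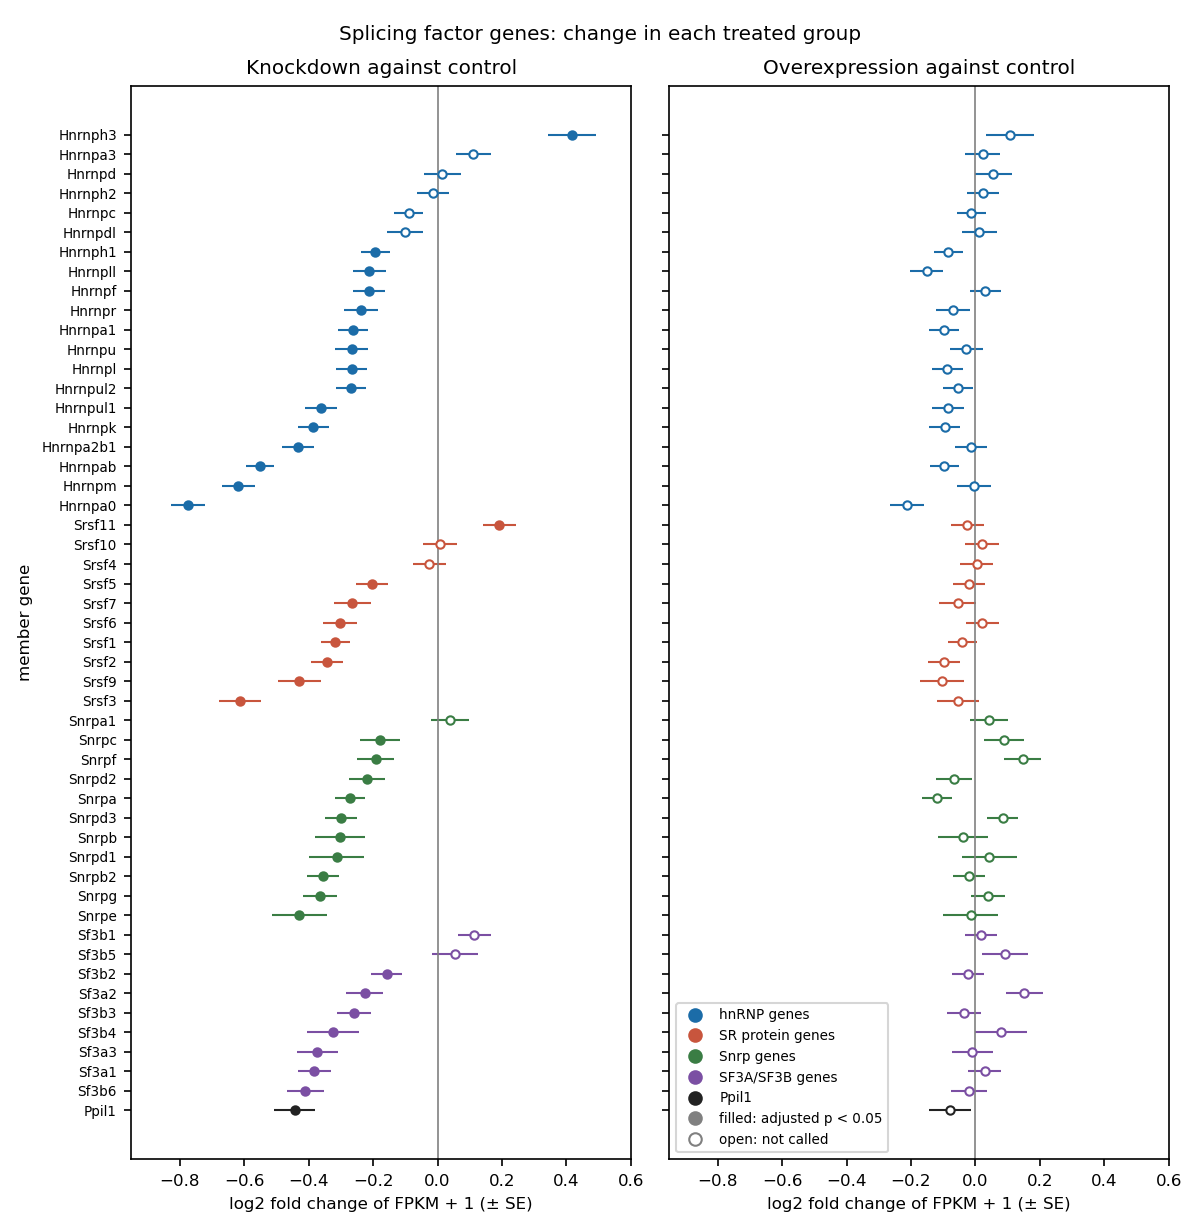
Each point is the log2 fold change of FPKM + 1 of a tested member with its standard error from limma (horizontal axis), for knockdown on the left and overexpression on the right, both against the same 2 control libraries. Filled points were called. On the left 39 filled points lie below 0 and 2 above it, and on the right no point is filled.

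Among the hnRNP genes, 14 of 20 fell (70%, against 31.3% of all tested genes) and 1 rose, with a median of −0.25. The largest fall of all members was in Hnrnpa0, a relative of hnRNP A1 that also binds AU-rich elements. Its levels were 182 and 178 FPKM in control, 151 and 159.7 with overexpression and 102 and 108 with knockdown. The 3 groups did not overlap, with knockdown lowest. Its mean fell by 41.8%, or by 0.77 ± 0.052 (SE) on the log2 scale (limma, adjusted p = 7.25e-05). Hnrnpm, a regulator of alternative exons, read 63.8 and 61.04 FPKM in control, 62.2 and 62.4 with overexpression and 38.98 and 41.7 with knockdown. Control and overexpression overlapped there, and both knockdown libraries were lower. The log2 fall was 0.62 ± 0.052 (limma, adjusted p = 0.000133). Hnrnpab, which binds both RNA and single-stranded DNA, read 307 and 308 FPKM in control, 286 and 290.2 with overexpression and 209.8 and 210.0 with knockdown. Again the knockdown pair was lowest and overlapped neither other group. Hnrnpab fell by 0.55 ± 0.044 on the log2 scale (limma, adjusted p = 0.000119).

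The A/B-type paralogs Hnrnpa1 and Hnrnpa2b1 both fell, by different amounts. Hnrnpa1 was at 432 and 449 FPKM in control, 409 and 414 with overexpression and 368 and 366 with knockdown, a log2 fall of 0.26 ± 0.047 (limma, adjusted p = 0.0025). Hnrnpa2b1, whose product also carries RNA to neurites, was at 119.6 and 116 FPKM in control, 116 and 117 with overexpression and 84.4 and 89.6 with knockdown, a log2 fall of 0.43 ± 0.049 (limma, adjusted p = 0.000323). Hnrnpa3, also of the A type, was not called. It read 15.6 and 16.1 FPKM in control, 16.6 and 15.7 with overexpression and 17.5 and 16.98 with knockdown, a log2 difference of 0.11 ± 0.055 (limma, adjusted p = 0.127). Annotation lists 23 near-identical copies of Hnrnpa3 elsewhere in the genome, so its level is uncertain.

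Hnrnpk, a poly(C)-binding protein with KH domains, fell by 0.39 ± 0.049 on the log2 scale, and Hnrnpul1 by 0.36 ± 0.050. Hnrnpl, which binds CA repeats, and its paralog Hnrnpll, known for switching CD45 exons in lymphocytes, fell by 0.27 ± 0.048 and 0.21 ± 0.051. The nuclear scaffold gene Hnrnpu fell by 0.27 ± 0.051, Hnrnpul2 by 0.27 ± 0.047, Hnrnpr by 0.24 ± 0.053, and the G-run binders Hnrnpf and Hnrnph1 by 0.21 ± 0.050 and 0.19 ± 0.045. Limma's adjusted p for these genes ran from 0.000508 to 0.00943. Leaving out a single library ended the calls of Hnrnpll and Hnrnpf (adjusted p = 0.0804 and 0.0584 without control 2) and of Hnrnpr and Hnrnph1 (0.0532 and 0.0509 without control 1). Those of Hnrnpll, Hnrnpf and Hnrnph1 were also lost under all 3 other scalings, with falls under quantile normalization of 0.082 and 0.045 for Hnrnpll and Hnrnpf (adjusted p = 0.212 and 0.428) and a turn to 0.017 for Hnrnph1 (0.745). Hnrnpr, Hnrnpu and Hnrnpul2 were lost with quantile normalization (adjusted p = 0.0955, 0.375 and 0.0605) and equal summed FPKM (0.154, 0.0779 and 0.0557), and Hnrnpl with quantile normalization (0.236).

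Hnrnph3, of the same family as Hnrnph1, moved the other way. It was at 8.97 and 8.50 FPKM in control, 9.52 and 9.43 with overexpression and 12.9 and 11.1 with knockdown. Knockdown was highest, and no group overlapped another. Hnrnph3 rose by 0.42 ± 0.075 on the log2 scale (limma, adjusted p = 0.00249), and did so under all 3 other scalings, but with no filter on low values its adjusted p was 0.0525. Hnrnpc and Hnrnpdl had lower values in both knockdown libraries without passing the test (−0.090 and −0.10). Hnrnpd, known as AUF1 for its part in decay of AU-rich mRNAs, and Hnrnph2 overlapped between control and knockdown (18.7 and 17.7 against 17.8 and 19.1 FPKM, and 29.7 and 30.7 against 29.3 and 30.5 FPKM).

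Of the 10 tested SR protein genes, 7 fell (70%, against 31.3% of all tested genes) and 1 rose, with a median of −0.28. Srsf3, the smallest SR protein, which also links splicing to mRNA export, read 118 and 120.2 FPKM in control, 115 and 114 with overexpression and 72.2 and 83.2 with knockdown. The knockdown pair lay below all other libraries, and the overexpression pair narrowly below control. Its mean fell by 34.7%, or by 0.61 ± 0.065 on the log2 scale (limma, adjusted p = 0.000257). Srsf1, the founding member of the family, and its close relative Srsf9 fell by 0.32 ± 0.046 and 0.43 ± 0.067 (limma, adjusted p = 0.000907 and 0.00136). Srsf9 stood at 64.04 and 56.9 FPKM in control, 54.6 and 57.7 with overexpression and 42.97 and 46.3 with knockdown, and Srsf1 at 75.6 and 73.3 FPKM in control, 71.7 and 73.01 with overexpression and 59.01 and 60.1 with knockdown. For both, control lay above knockdown without overlap.

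Srsf2, known as SC35 and a marker of nuclear speckles, was the most abundant SR gene. It read 155 and 151 FPKM in control, 142 and 144 with overexpression and 117 and 124 with knockdown, which gave a log2 fall of 0.34 ± 0.049 (limma, adjusted p = 0.000907). Srsf6, Srsf7 and Srsf5 fell by 0.30 ± 0.052, 0.26 ± 0.058 and 0.20 ± 0.050. The call of Srsf5 was lost without control 1 (adjusted p = 0.0578), without knockdown 2 (0.0543) and under all 3 other scalings, where its value was −0.12 with median scaling (0.0732), −0.018 with quantile normalization (0.777) and −0.073 with equal summed FPKM (0.249). Srsf7 was lost with quantile normalization (0.148), equal summed FPKM (0.0645) and no filter (0.0685), and Srsf2 and Srsf6 with quantile normalization (0.0634 and 0.0819).

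Srsf11, an SR-like protein known for its part in including neuronal microexons, was higher under knockdown. Its levels were 27.1 and 26.02 FPKM in control, 26.6 and 25.6 with overexpression and 30.04 and 30.9 with knockdown. Control and overexpression overlapped, and both knockdown libraries were above them. The log2 rise was 0.19 ± 0.051 (limma, adjusted p = 0.0153), which was lost without control 2 (adjusted p = 0.102) or knockdown 2 (0.0617) and held under all 3 other scalings. Srsf10, which represses splicing when dephosphorylated, and Srsf4 overlapped between control and knockdown, at 47.3 and 44.6 against 44.8 and 47.7 FPKM and 18.5 and 18.1 against 17.7 and 18.2 FPKM.

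**Figure D2:**
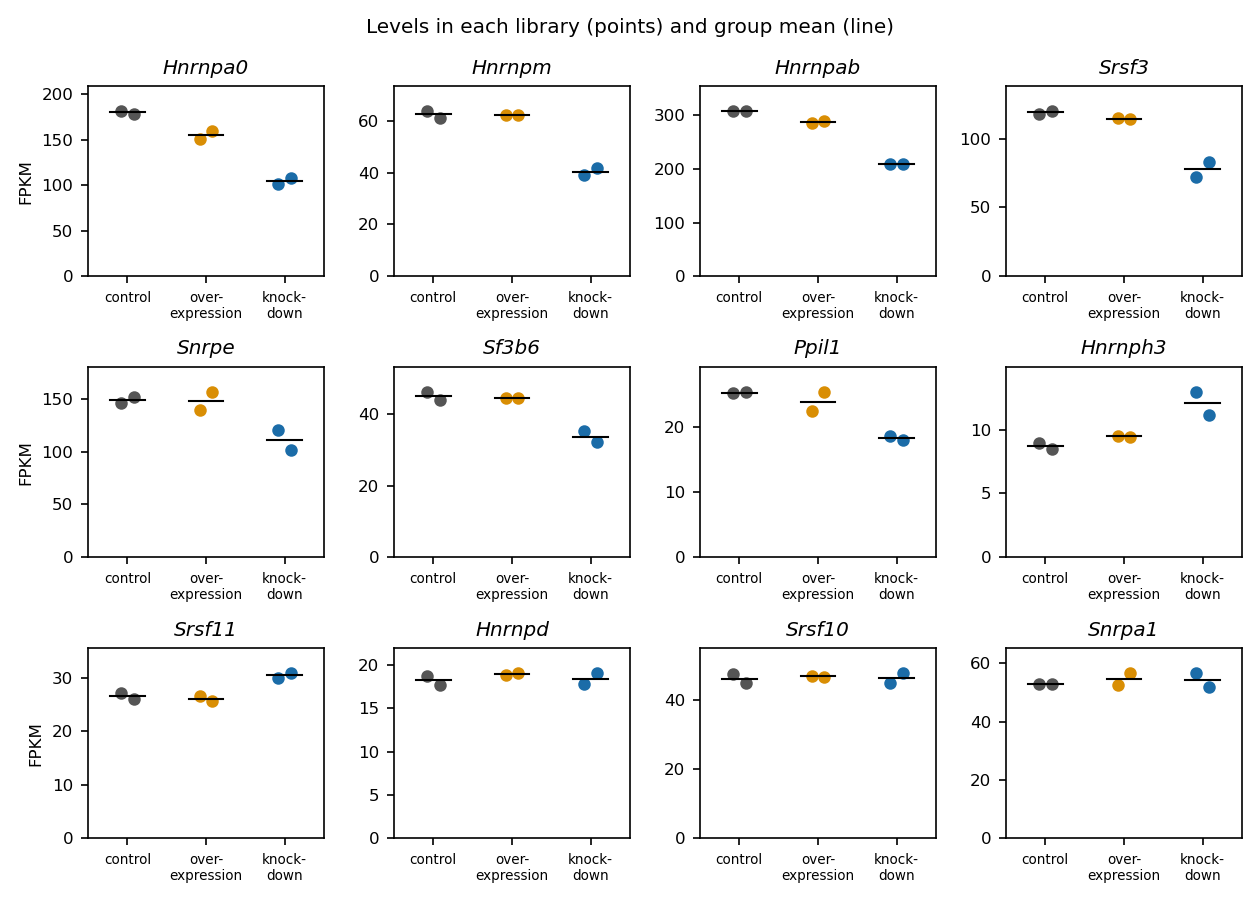
FPKM of 12 members in each of the 6 libraries (points) with the group mean (line), on axes that start at 0 and differ between genes. In the top row and for Snrpe, Sf3b6 and Ppil1 the knockdown points lie below all control points, for Hnrnph3 and Srsf11 they lie above, and for Hnrnpd, Srsf10 and Snrpa1 they overlap.

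Of the 11 tested Snrp genes 10 fell (90.9%, against 31.3% of all tested genes) and none rose, with a median of −0.30. With quantile normalization only 2 of the 11 were called lower and 1 higher. That lower share was below the 21.4% of all genes called lower in the same setting. The 7 tested genes for the Sm ring all fell: Snrpe by 0.43 ± 0.085, Snrpg by 0.36 ± 0.053, Snrpd1 by 0.31 ± 0.086, Snrpb by 0.30 ± 0.078, Snrpd3 by 0.30 ± 0.049, Snrpd2 by 0.22 ± 0.057 and Snrpf by 0.19 ± 0.057. Snrpg was at 216 and 207 FPKM in control, 212 and 223 with overexpression and 169 and 159.7 with knockdown (limma, adjusted p = 0.000954). Snrpe was at 146 and 152 FPKM in control, 139 and 157 with overexpression and 121 and 101 with knockdown (limma, adjusted p = 0.00397). In both genes the knockdown libraries were lowest, with a wider gap between the pair for Snrpe.

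Several Sm calls were lost when a library was left out or the scaling changed. Without control 1 the limma adjusted p was 0.08 for Snrpb, 0.0727 for Snrpd2 and 0.111 for Snrpf. Without control 2 it was 0.111 for Snrpd1, 0.0509 for Snrpd2 and 0.0747 for Snrpf. Without knockdown 1 it was 0.0575 for Snrpb and 0.137 for Snrpf, and without knockdown 2 it was 0.0904 for Snrpd1 and 0.0712 for Snrpd2. Snrpe, Snrpg and Snrpd3 were called with each library left out in turn, but the call of Snrpe was lost with no filter on low values (0.0978). Under all 3 other scalings Snrpb, Snrpd2 and Snrpf were lost, with adjusted p-values of 0.23, 0.961 and 0.978 after quantile normalization, where Snrpd2 and Snrpf both stood at −0.0030. Snrpd1 was lost with quantile normalization (0.243) and equal summed FPKM (0.0607), and Snrpd3 and Snrpg with quantile normalization (0.176 and 0.0595). With no filter, Snrpb, Snrpd1, Snrpd2 and Snrpf were lost as well.

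The proteins particular to U1 and U2 did not all move alike. Snrpa, the U1 subunit that binds a stem-loop of U1 RNA, read 48.8 and 50.6 FPKM in control, 45.4 and 45.97 with overexpression and 40.8 and 41.2 with knockdown, with the groups apart and a log2 fall of 0.27 ± 0.046 under knockdown (limma, adjusted p = 0.00205, and 0.0525 with quantile normalization). Snrpc, which helps U1 hold the donor site, fell by 0.18 ± 0.062 (adjusted p = 0.0441), a call lost without control 2 (0.292), knockdown 1 (0.0995) or knockdown 2 (0.132) and under all 3 other scalings, where quantile normalization turned it to 0.013 (0.85). In U2, Snrpb2 was at 41.3 and 41.9 FPKM in control, 40.9 and 41.2 with overexpression and 31.4 and 33.3 with knockdown, with a log2 fall of 0.35 ± 0.050 (limma, adjusted p = 0.000819). Its partner in U2, Snrpa1, was at 52.9 and 52.9 FPKM in control, 52.4 and 56.5 with overexpression and 56.8 and 52.01 with knockdown, where the groups overlapped (0.039 ± 0.059, limma, adjusted p = 0.624).

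In SF3A and SF3B, which clamp U2 to the branch site, 7 of 9 genes fell and none rose, with a median of −0.26. The share lower was 77.8%, against 31.3% of all tested genes. All 3 SF3A genes fell: Sf3a1 by 0.38 ± 0.051, Sf3a3 by 0.37 ± 0.064 and Sf3a2 by 0.23 ± 0.057. Sf3a1 read 20.4 and 20.1 FPKM in control, 21.03 and 20.3 with overexpression and 15.4 and 15.2 with knockdown (limma, adjusted p = 0.000619), so that control and overexpression overlapped and knockdown was apart. Sf3b6, the small subunit that contacts the branch adenosine, read 46.2 and 43.9 FPKM in control, 44.4 and 44.4 with overexpression and 35.1 and 32.2 with knockdown, a log2 fall of 0.41 ± 0.056 (limma, adjusted p = 0.000731). Sf3b4, Sf3b3 and Sf3b2 fell by 0.33 ± 0.080, 0.26 ± 0.053 and 0.16 ± 0.049.

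Sf3b1, the large scaffold subunit and a frequent target of mutation in blood cancers, was not lower. It was at 33.6 and 33.1 FPKM in control, 34.1 and 33.4 with overexpression and 37.3 and 35.1 with knockdown. Both knockdown libraries were the highest of the 6, with a log2 difference of 0.11 ± 0.050 that did not pass the test (limma, adjusted p = 0.0929). Sf3b5, a small subunit and the most abundant of the family, overlapped at 145 and 161 FPKM in control and 167 and 150.4 under knockdown. Without a single library 3 calls were lost: Sf3a2 (adjusted p = 0.0712 without control 1 and 0.0547 without knockdown 1), Sf3b4 (0.0787 without control 2 and 0.0677 without knockdown 1) and Sf3b2 (0.148 without control 1, 0.0667 without control 2 and 0.0962 without knockdown 2). Sf3a2 and Sf3b2 were also lost under all 3 other scalings, with falls of 0.098 and 0.028 at equal summed FPKM (adjusted p = 0.20 and 0.687), and Sf3b2 without the trend (0.0522). Sf3b3 and Sf3b4 were lost with quantile normalization (0.20 and 0.183) and equal summed FPKM (0.0801 and 0.083), and Sf3a2 and Sf3b4 with no filter (0.0695 and 0.141).

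Ppil1, a cyclophilin of the activated spliceosome, was at 25.2 and 25.4 FPKM in control, 22.4 and 25.4 with overexpression and 18.6 and 18.04 with knockdown. Knockdown lay below the other groups, which overlapped with each other. Its mean fell by 27.5%, or by 0.44 ± 0.064 on the log2 scale (limma, adjusted p = 0.000954). Of the 41 calls under knockdown, 15 held under all 16 alternative settings tried: Hnrnpa0, Hnrnpa1, Hnrnpa2b1, Hnrnpab, Hnrnpk, Hnrnpm, Hnrnpul1, Srsf1, Srsf3, Srsf9, Snrpb2, Sf3a1, Sf3a3, Sf3b6 and Ppil1. With each library left out in turn, 27 held.

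Overexpression of lncPim1 was set against the same 2 control libraries, so its values share them with those of knockdown. No member was called by limma, against 1.54% of all tested genes (0.849% lower and 0.69% higher), and none under any of the 16 alternatives. At an unadjusted p under 0.05 there were 5 members of 51, against 17.1% of all genes. The changes ran from −0.21 to 0.15 on the log2 scale, with a median of −0.019 (all genes −0.0031). Libraries of the 2 groups did not overlap for 17 members lower and 5 higher under overexpression, against 26.2% and 23.3% of all genes.

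The 5 members were Hnrnpa0, Hnrnpll and Snrpa, with lower values, and Sf3a2 and Snrpf, with higher values. Hnrnpa0, whose libraries are given above, differed by −0.21 ± 0.052 (limma, adjusted p = 0.0917, and 0.0759 to 0.381 over the alternatives). Hnrnpll read 33.4 and 35.6 FPKM in control, 30.99 and 30.9 with overexpression and 29.8 and 29.5 with knockdown, so that both treated groups lay below control (−0.15 ± 0.051 for overexpression, limma, adjusted p = 0.181). Sf3a2, part of SF3A, read 26.1 and 25.4 FPKM in control, 27.5 and 29.99 with overexpression and 21.5 and 22.3 with knockdown. Its overexpression pair was above control and its knockdown pair below (0.15 ± 0.057 for overexpression, limma, adjusted p = 0.221). Snrpf had the same order, at 87.5 and 85.9 FPKM in control, 95.9 and 96.3 with overexpression and 71.8 and 79.98 with knockdown (0.15 ± 0.057, limma, adjusted p = 0.241). Snrpa differed by −0.12 ± 0.046 (limma, adjusted p = 0.244).

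The treated groups were then compared with each other, which tests the difference between them directly. Of the 51 members, 35 were higher under overexpression than under knockdown and 2 were lower, Hnrnph3 and Srsf11. Of all tested genes 40.5% were called, 28.1% higher and 12.4% lower. Both overexpression libraries lay above both knockdown libraries for 42 members and below them for 4, where 47.2% and 24.7% of all genes did so. The median of the members was 0.24, against 0.071 for all genes. With the filter at 5 FPKM, 35.9% of all genes were higher and 10.7% lower, with a median of 0.1, beside 36 and 2 members. By family, 12 of 20 hnRNP genes were called higher and 1 lower, 7 of 10 SR genes higher and 1 lower, 9 of 11 Snrp genes and 6 of 9 SF3 genes higher with none lower, and Ppil1 higher. The largest differences were in Hnrnpm (0.61 ± 0.052, limma, adjusted p = 0.000242), Hnrnpa0 (0.56 ± 0.052, 0.000336) and Srsf3 (0.56 ± 0.065, 0.000615). Snrpf and Sf3a2 were 0.34 ± 0.057 and 0.38 ± 0.057 higher (adjusted p = 0.00247 and 0.00156). The 4 members that fell under knockdown against control and were not called here were Hnrnpll (0.061, adjusted p = 0.362), Hnrnph1 (0.11, 0.0835), Snrpd2 (0.15, 0.06) and Sf3b2 (0.13, 0.054).

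The differences of Hnrnph3 and Srsf11, overexpression minus knockdown, were −0.31 ± 0.075 and −0.22 ± 0.051 on the log2 scale (limma, adjusted p = 0.0113 and 0.0107). Without overexpression 2 their adjusted p-values were 0.0512 and 0.0677, and without knockdown 1 that of Hnrnph3 was 0.0638. Of the 37 calls, 25 held with each library left out in turn, 20 under all 3 other scalings (18 higher and 2 lower) and 15 under all 16 alternatives. After scaling each library by its median log ratio there were 27 higher and 4 lower (all genes 18.2% and 17.8%). With quantile normalization there were 18 and 4 (18% and 15.9%), and with the same summed FPKM 22 and 4 (14.2% and 21.4%).

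Seen as a share of the library, the members held 1.45% and 1.42% of the summed FPKM in control, 1.42% and 1.42% under overexpression, and 1.27% and 1.29% under knockdown. The hnRNP genes took 0.662% and 0.649% in control and 0.559% and 0.572% under knockdown. For SR genes the shares were 0.231% and 0.220%, against 0.193% and 0.206%. The Snrp genes held 0.404% and 0.397%, against 0.363% and 0.358%. In these 3 families the knockdown libraries lay below control. The SF3 genes did not separate, with 0.147% and 0.149% in control and 0.148% and 0.147% under knockdown. Sf3b5, whose values overlapped between control and knockdown, had the highest level of that family.

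**Figure D3:**
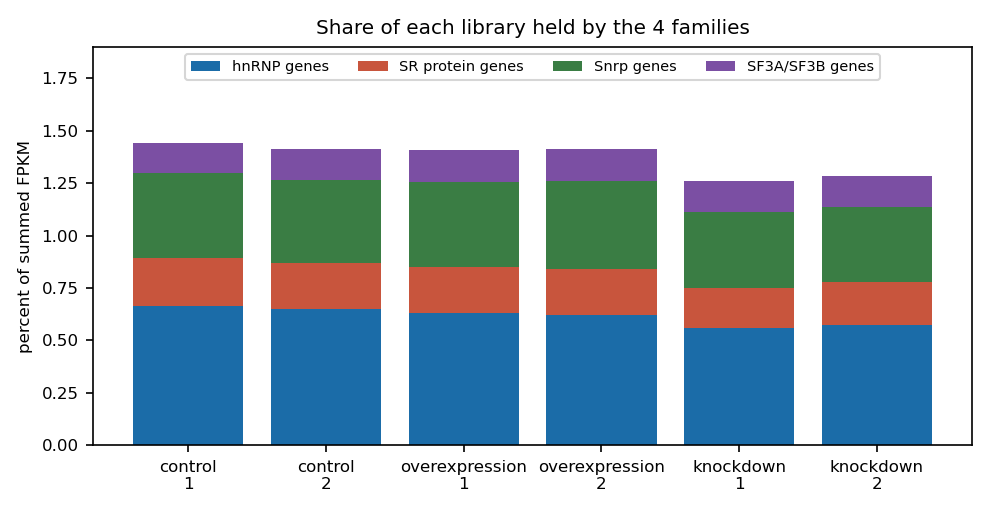
Percent of each library's summed FPKM held by the 4 families, stacked, for the 6 libraries. Ppil1 is not drawn; with it the members held 1.27% and 1.29% in the knockdown libraries, which have the shortest stacks, and 1.42% to 1.45% in the other 4.

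The same contrasts were read for 209 other tested genes of the splicing pathway, in 9 lists. Under knockdown 100 fell (47.8%, against 31.3% of all tested genes) and 17 rose (8.13%, against 14.8%), with a median of −0.18, and under overexpression 1 rose and none fell. The hnRNP proteins under other symbols held 10 of 17 lower (58.8%) and none higher, among them the poly(C)-binding Pcbp2 (94.4 and 90.3 FPKM in control, 64.4 and 63.8 under knockdown, log2 fall 0.52 ± 0.048). In the list for the SMN complex and assembly of snRNPs, 13 of 20 fell (65.0%) and none rose, with the largest change named in Strap, a member of the SMN complex (106 and 104 against 65.1 and 65.8 FPKM, log2 fall 0.67 ± 0.046), and the cap-binding Ncbp2 (log2 fall 0.47 ± 0.053). Of the tri-snRNP and Lsm genes 19 of 33 fell (57.6%), such as Lsm7 of the Lsm ring on U6 (0.57 ± 0.056), and 1 rose, Prpf38b (0.63 ± 0.051). Fewer were lower under the other scalings. With quantile normalization the lower and higher calls were 4 and 2 for the hnRNP proteins under other symbols, 4 and 0 for the SMN list and 11 and 2 for the tri-snRNP list. All genes then stood at 21.4% lower and 18.7% higher, so the lower calls of the hnRNP and SMN lists were near that share. With equal summed FPKM the lists gave 4 and 2, 5 and 0, and 11 and 3 (all genes 16.3% and 25.4%). The medians of all 3 lists stayed below 0.

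The U1, U2 and branch site list had 12 of 26 lower (46.2%) and 4 higher. All 26 had a mean of at least 5 FPKM, where 39.5% of all genes were lower and 12.6% higher. The 12 and 4 calls became 9 and 5 after median scaling (all genes 21.3% and 20.9%), 3 and 5 with quantile normalization (21.4% and 18.7%) and 6 and 6 with equal summed FPKM (16.3% and 25.4%). With quantile normalization the share of this list called lower was below that of all genes. Its calls included rises in the U1-associated Prpf39 (0.64 ± 0.063) and Luc7l (0.52 ± 0.059). The Prp19 complex, catalytic factors and cyclophilins had 13 of 35 lower, a share of 37.1% near that of all genes, and 2 higher, with falls in Prpf19 (0.50 ± 0.062), the ubiquitin ligase that gives the complex its name, and the helicase Aqr (0.40 ± 0.059). The minor spliceosome list had 3 of 12 lower (25.0%) and none higher. Among them were Zmat5, lost with no filter (adjusted p = 0.059), and Zcrb1, lost with quantile normalization (0.117). The median of that list, −0.068, turned to 0.0023 after median scaling and 0.044 after scaling to the same sum, which also turned that of the Prp19 list from −0.13 to 0.0046. The exon junction complex and nonsense-mediated decay list had 8 of 16 lower (50.0%) and 3 higher, with falls in Magoh (0.48 ± 0.047) and the export adaptor Alyref (0.49 ± 0.050). Neuronal and tissue regulators had 15 of 24 lower (62.5%) and 3 higher, and 9 and 5 with equal summed FPKM, with falls in Nono (0.68 ± 0.048), and in the neuronal RNA-binding genes Elavl2 (0.64 ± 0.056) and Elavl4 (0.51 ± 0.062).

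SR-related proteins and SR protein kinases stood at 7 of 26 lower (26.9%) and 4 higher (15.4%), both near the share of all genes, with a median of −0.038. Clk1 and Clk4, kinases that phosphorylate SR proteins, rose: Clk1 from 11.2 and 9.61 FPKM to 18.2 and 15.5 (log2 rise 0.64 ± 0.091), and Clk4 from 8.36 and 8.60 to 12.00 and 12.5 (0.48 ± 0.060). The median of this list turned positive after scaling by the median log ratio (0.038), by quantiles (0.033) and to the same sum (0.083), with 3, 2 and 2 lower calls and 9, 8 and 10 higher. All genes stood at 21.3%, 21.4% and 16.3% lower and 20.9%, 18.7% and 25.4% higher in these settings. The single call under overexpression, Ppil4, a cyclophilin, rose by 0.28 ± 0.054 (limma, adjusted p = 0.0476) and held in 5 of 16 alternatives. It was lost whichever of the 6 libraries was left out. Its call was also lost with no filter, quantile normalization, no trend, only the libraries compared and a replicate block. Limma's adjusted p of the other genes named from these lists ran up to 0.00398 (Zcrb1) under knockdown.

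**Figure D4:**
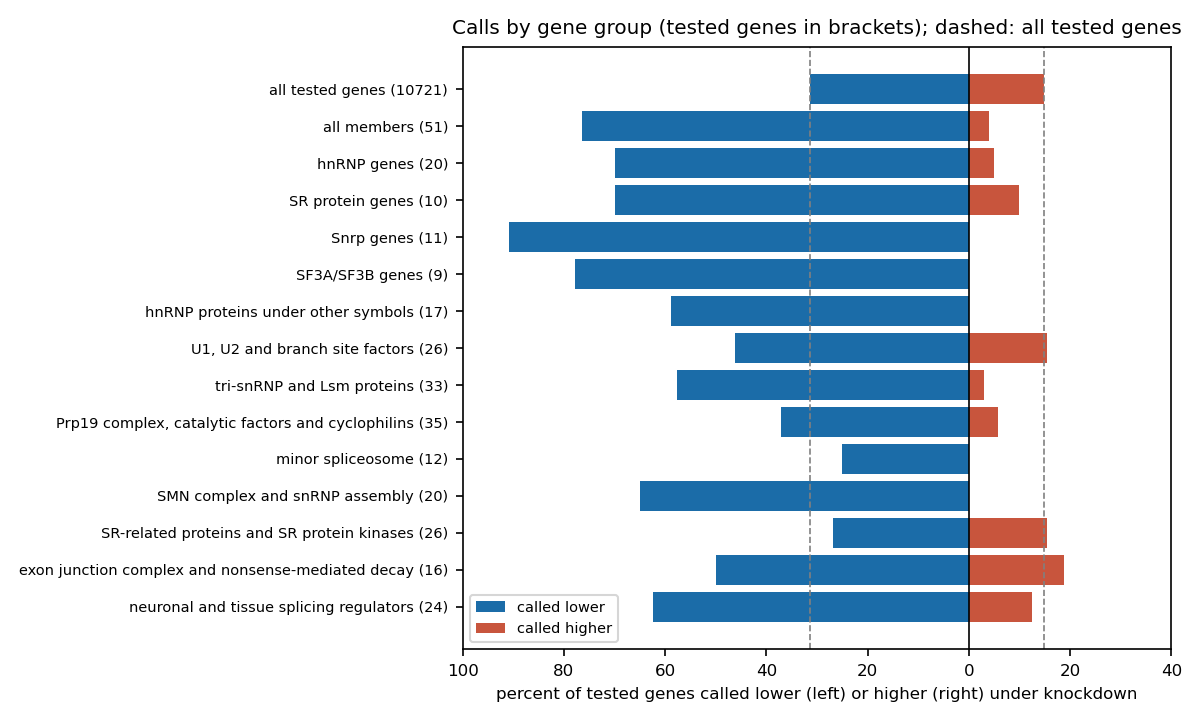
Percent of tested genes called lower (left) or higher (right) under knockdown, for all tested genes, the members and their families, and the 9 other splicing lists, with the number tested in brackets. Dashed lines mark all tested genes, 31.3% lower and 14.8% higher. The members lie at 76.5% lower and 3.92% higher.

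All 53 members were matched to GENCODE release M21 on build GRCm38, and lie on 18 chromosomes. On chromosome 17 lie 6 of them, the chromosome of the protein kinase gene Pim1 (29490753 to 29496112). Nearest to Pim1 was Ppil1 (29250803 to 29264186, minus strand), 226566 bases away, followed by Srsf3 (29032628 to 29043373, plus strand) at 447379 bases. Snrpc lay 1638784 and Hnrnpm 4150120 bases away, and Hnrnpll and Srsf7 50533374 and 50703967 bases. The labels do not place lncPim1, and no link between position and change was tested.

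Annotated transcripts with retained introns were listed for 38 of the 51 tested members (74.5%) and 61.1% of 10356 matched tested genes, and transcripts marked for nonsense-mediated decay for 25 members (49.0%) and 30.2% of genes. Srsf11 had 11 retained-intron and 3 decay transcripts among 19, and Srsf3 had 4 and 2 among 10. Hnrnpa0 had a single transcript. A value per gene symbol does not tell these transcripts apart.

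Some levels are uncertain because reads may be shared. Exonic bases overlapped another annotated gene for 24 of 53 members. The share was 85.4% for Snrpf (with Ccdc38 and 4933408J17Rik, both on the other strand) and 43.0% for Srsf4. It was 34.1% for Snrpn, 29.1% for Hnrnpab (with Phykpl on the other strand) and 14.7% for Hnrnpm (with March2 on the same strand). A near-identical copy, with at least 95% identity over at least 300 bases, was annotated elsewhere for 15 members, such as Hnrnpa3 (23 copies), Hnrnpf (7), Srsf3 (4), Snrpc (3) and Hnrnpa1 (2). The kit was stranded per the labels, while no source used here gives the strand setting of the counting.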

How the data were processed

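Libraries were made from total RNA of Neuro-2a cells with a stranded, poly(A)-selecting kit, per the labels' protocols. The authors deposited a table of FPKM values with 1 row per gene symbol. The submitters' processing notes name build mm10 and the tools Cufflinks, DESeq, HISAT2, HTSeq and Trimmomatic, in no order. No source used here gives their versions, the annotation, any filter or the strand setting. Because FPKM is relative to the library total, a shift in abundant genes moves all others. Absolute depth is unknown, and relative depth read from steps of low values was 0.89 to 1.08 times that of control 1.

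The 10721 rows that averaged 1 FPKM or more were fitted as log2(FPKM + 1) with limma 3.58.1 in R 4.3.3, with 1 mean per group, moderation along a trend with expression and 3 residual degrees of freedom. On this scale the change of low genes is understated. Benjamini-Hochberg adjustment ran over all rows, and calls had an adjusted p under 0.05. The script was tested on simulated data. Members, lists and markers were chosen with earlier results of these data known. Genes named in detail were those with the smallest p in each family, the largest changes, the highest and lowest levels and fixed paralog pairs. The other members are given to account for all 53, and Snrpe, Hnrnpd, Srsf10 and Snrpa1 were chosen for the plot of levels after their values were seen. Alternatives were the pseudocount (0.1 or 0.5), the filter (none or 5 FPKM), scaling, quantile normalization, moderation without the trend, only the libraries compared, a replicate block and each library left out. Scaling to the same summed FPKM was added after seeing the data. Near-identical copies were sought with minimap2 2.31. Promoters came from RefSeq (47 of 53 members matched).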

Additional observations from a re-analysis of the deposited data

How the results depend on the processing

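Of the 51 tested members, 41 were called under knockdown against control. The count was 23 with quantile normalization, 33 with median scaling, 28 with equal summed FPKM, 32 with no filter on low values, and 32 to 41 with each library left out. Of all genes 46.2% were called under knockdown. That share was 40.1% with quantile normalization, 42.3% with median scaling, 41.6% with equal summed FPKM and 15.6% with no filter. Between overexpression and knockdown 40.5% of all genes were called, 12.6% with no filter and 33.9% with quantile normalization. Of the 37 members called between these groups, 21 remained called with no filter. Quantile normalization gave 22 calls there, and leaving out each library gave 25 to 36. No member was called under overexpression against control in any setting, with each library left out included (0 to 0). Directions turned under quantile normalization for Snrpc (0.013) and Hnrnph1 (0.017), both under knockdown. The cause was not tested. Among all tested genes, 165 were called under overexpression, and 83 with no filter, 97 without the trend, 66 with a replicate block and 14 to 172 with each library left out. Between overexpression and knockdown 4345 genes were called, and 2747 with no filter. Of all knockdown calls 32.1% were higher, 49.5% with median scaling, 46.6% with quantiles and 60.9% with equal sums. Replicate numbers did not pair the libraries: deviations of same-numbered libraries correlated at −0.117 (control and overexpression), 0.0069 (control and knockdown) and −0.211 (overexpression and knockdown). With the replicate block 40, 0 and 35 members were called under knockdown, overexpression and between them. With 2 libraries a group and no counts, small changes may not have been detectable.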

Other observations

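Ratios between members within a library do not change when all values of that library are multiplied by the same factor, although quantile normalization would change them. These pairs were listed with their values known, and no test was run. Sf3a1 over Sf3b1, subunits of the same U2 assembly, was 0.606 and 0.608 in control, 0.618 and 0.608 under overexpression, and 0.414 and 0.432 under knockdown. Srsf11 over Srsf3 was 0.230 and 0.216 in control, 0.232 and 0.224 under overexpression, and 0.416 and 0.372 under knockdown. Hnrnph3 over Hnrnph1 was 0.0599 and 0.0571 in control, 0.0689 and 0.0658 under overexpression, and 0.0998 and 0.0849 under knockdown. In these 3 pairs both knockdown libraries lay outside the range of the other 4.

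Hnrnpa0 over Hnrnpa1 was 0.421 and 0.397 in control, 0.369 and 0.386 under overexpression, and 0.277 and 0.296 under knockdown, with no overlap between the groups. Snrpa over Snrpa1, which mark U1 and U2, was 0.922 and 0.957 in control, 0.866 and 0.813 under overexpression, and 0.719 and 0.792 under knockdown. Hnrnpa1 over Hnrnpa2b1 was 3.61 and 3.87 in control, 3.53 and 3.52 under overexpression, and 4.36 and 4.09 under knockdown. Srsf1 over Srsf9 was 1.18 and 1.29 in control, 1.31 and 1.27 under overexpression, and 1.37 and 1.30 under knockdown, so that knockdown lay above control and overlapped with overexpression. The ratio of Hnrnpl to Hnrnpll overlapped between control and knockdown.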
